A study of Mus musculus with 8 samples.

Results

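Messenger RNA of monocyte-derived macrophages (MoM) from wild-type mouse liver was compared with that of Kupffer cells from wild-type mouse liver. The comparison holds 4 of the 8 libraries of the study, 2 per group, chosen by the genotype and cell type in their titles. Every mouse was of the C57BL/6 strain, and no treatment, age or sex is given for any group. The other 4 libraries are MoM and Kupffer cells of dnTGFβRII mice (TG), whose T cells express a dominant-negative form of the type II TGF-β receptor under a CD4 promoter and which develop cholangitis. The TG libraries entered the model as a further source of replicate spread and are set beside the wild-type (WT) values at the end. How the cells were separated, and whether replicates came from separate animals or from pools, is not given in the sources used here, so the p-values may measure only technical spread.

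Kupffer cells are the resident macrophages of the liver sinusoid. They are seeded before birth, maintain themselves largely without the bone marrow, and clear particles, aged erythrocytes and opsonised microbes from portal blood. Monocytes enter the liver from the blood and can become macrophages or cells with dendritic features, which take up antigen and display it on MHC class II to T cells. In bulk RNA, fewer cells of a type and less RNA per cell cannot be told apart.

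The 4 libraries held 28024375 to 30308132 counts, and 15666 and 15844 genes had a count in the Kupffer libraries against 16720 and 17674 in the MoM libraries. Levels are given below as CPM, read counts scaled to library size with edgeR's TMM factors. Across genes, log2 CPM correlated at r = 0.973 between the 2 Kupffer libraries and at 0.932 between the 2 MoM libraries. MoM replicate 1 correlated with the Kupffer libraries at 0.891 and 0.902, and MoM replicate 2 at 0.815 and 0.816. The MoM replicates therefore differed in how near they lay to Kupffer cells.

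The labels were checked on defining genes. Clec4f (chr6:83644542-83656187, GRCm38), a lectin that marks Kupffer cells, had 11553 and 12314 CPM in the Kupffer libraries, 3599 in MoM replicate 1 and 33.3 in MoM replicate 2. MoM replicate 1 thus carried 30.16% of the Kupffer mean and MoM replicate 2 carried 0.279%. Ccr2, the chemokine receptor that brings monocytes out of the bone marrow, had 6.46 and 3.88 CPM in Kupffer cells against 128 and 186 in MoM. Ccr2 was thus high in both MoM libraries and low in both Kupffer libraries. Adgre1, which encodes the macrophage surface protein F4/80, had 2491 and 2488 CPM in Kupffer cells, 720 in MoM replicate 1 and 182 in MoM replicate 2, so it was present in every library. Ly6c2, a marker of classical monocytes, stood at 10 and 1.79 CPM in Kupffer cells and at 15.3 and 43.8 in MoM, with an adjusted p of 0.304 in edgeR's test.

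Of 15254 genes tested across all 8 libraries with edgeR's quasi-likelihood test, 178 passed an adjusted p of 0.05, which is 1.17% of the genes tested. Of these, 169 rose in MoM (1.11%) and 9 fell (0.059%). The 169 genes that rose differed by 1.13 to 10.41 on the log2 scale, and 52 of them had a mean under 1 CPM in Kupffer cells. For 158 of the 169, MoM replicate 2 stood above MoM replicate 1, with a median ratio of 1.592 between those libraries. Of the 169, 4 were Ugt1a genes, which share exons and had nearly the same values (log2 1.37 to 1.52), so they are not separate measurements. The counts depend on single libraries. Without MoM replicate 1, 729 of 15882 genes were called (4.59%), 391 higher (2.46%) and 338 lower (2.13%); there the lone MoM library is assumed to vary like the other groups. Without MoM replicate 2, or without either TG MoM library, only Mgl2 was called. Without Kupffer replicate 1 or 2, edgeR's test called 0 genes, while 2017 and 1907 genes had an unadjusted p below 0.05. Fitted on the 4 WT libraries alone, 1585 of 14547 genes were called (10.9%), 1179 higher (8.1%) and 406 lower (2.79%), and all 178 genes were among them. DESeq2 on all libraries called 2867 of 15501 genes (18.5%), 1815 higher (11.7%) and 1052 lower (6.79%), again with all 178 among them. Without TG Kupffer replicate 1 or 2, the count was 1378 and 1434.

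The genes with the largest rises encode lectins, proteases, a protease inhibitor, receptors, an adhesion molecule, an adaptor and a calcium-binding protein. Mgl2 (chr11:70130329-70137550), a galactose-binding lectin of macrophages and dendritic cells, had 0.323 and 0.299 CPM in Kupffer cells and 64.1 and 97.1 in MoM. Its log2 fold change was 8.0 ± 0.35 (SE; edgeR, adjusted p = 0.00385), the smallest p among the genes named here. Cd209a (chr8:3743397-3748984), a relative of the pathogen lectin DC-SIGN, had 0.718 and 0.373 CPM in Kupffer cells and 176 and 333 in MoM. It rose by 8.85 ± 0.74 (edgeR, adjusted p = 0.026). For both lectins the Kupffer libraries were under 1 CPM and both MoM libraries were high, and the groups did not overlap.

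The MoM libraries were alike for some of these genes and apart for others. Spint1, a membrane-bound inhibitor of serine proteases, stood at nearly the same level in both MoM libraries, with 50.3 and 47.8 CPM against 0.431 and 0.224 in Kupffer cells (log2 7.20 ± 0.52, edgeR, adjusted p = 0.0198). The decoy receptor for interleukin 1, Il1r2, had 1.54 and 0.672 CPM in Kupffer cells, 72.5 in MoM replicate 1 and 327 in MoM replicate 2 (log2 7.49 ± 1.02, edgeR, adjusted p = 0.0374). S100a4, a calcium-binding protein of motile cells, had 0.359 and 0.448 CPM in Kupffer cells, 71.1 in MoM replicate 1 and 352 in MoM replicate 2 (log2 9.02 ± 1.40, edgeR, adjusted p = 0.0478). Il1r2 and S100a4 were highest in MoM replicate 2, and 158 of the 169 genes that rose were higher there than in MoM replicate 1. NK cell markers also summed higher there (371.5 CPM, against 51.2 in MoM replicate 1). Markers of plasmacytoid dendritic cells summed lower there (289.1 CPM, against 340.3 in MoM replicate 1). The part of other leukocytes in the rises of Il1r2 and S100a4 was not tested. The others with rises of this size were Mmp25, a membrane-anchored metalloprotease at 20.9 and 70.6 CPM in MoM, the growth factor receptor Flt3, the adaptor Sh2d1b1, the short-chain fatty acid receptor Ffar2, the adhesion molecule Alcam, the sialic acid lectin Siglecg and the aspartic protease Napsa. In each of them both MoM libraries lay above both Kupffer libraries.

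**Figure D1:**
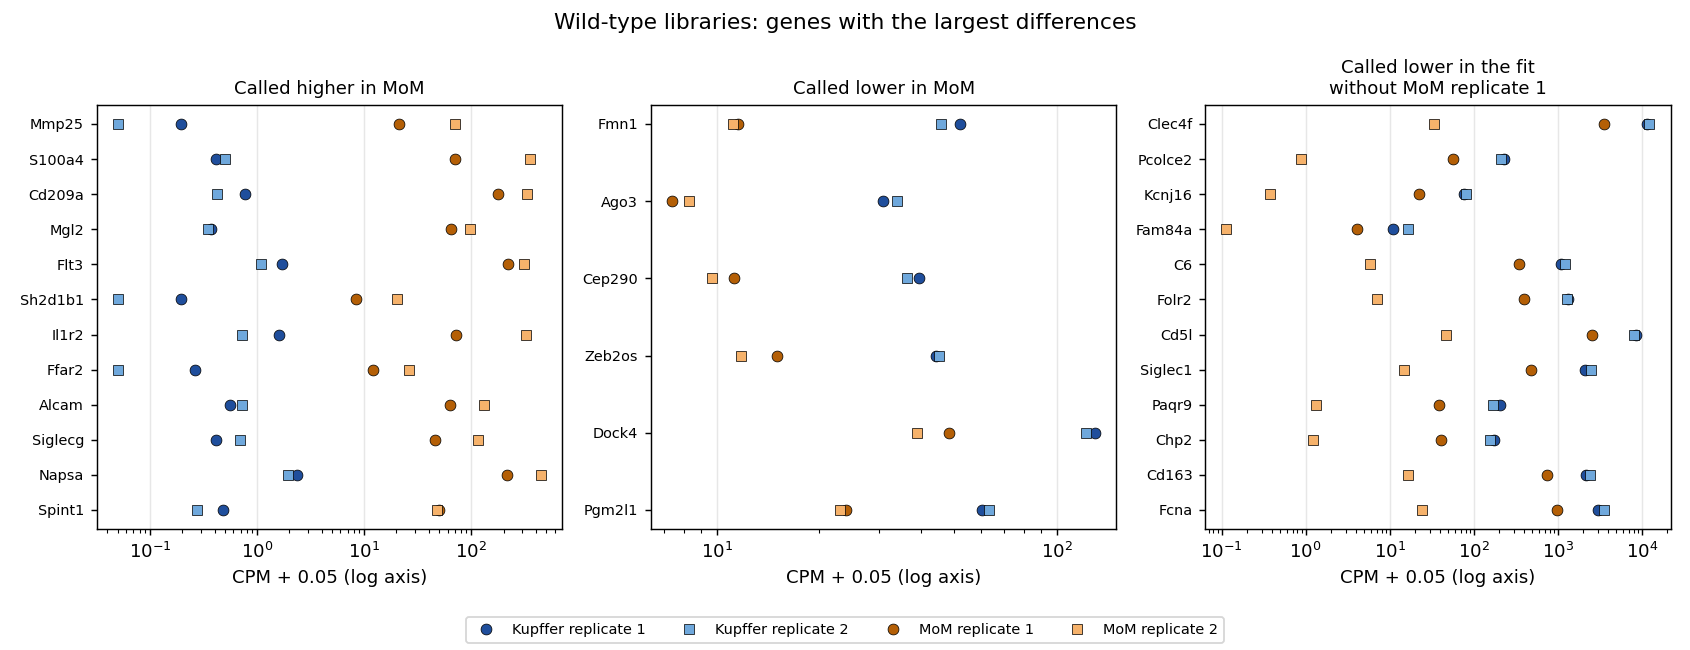
Levels of single genes in the 4 wild-type libraries on log axes, as CPM plus 0.05 so that libraries at 0 can be drawn; each symbol is 1 library. Left, the 12 largest rises called, where both MoM libraries lie above both Kupffer libraries; middle, the 6 falls called that bear gene names, where both MoM libraries lie close together; right, 12 falls called by edgeR once MoM replicate 1 was left out, where that library stands at 20.72% to 32.33% of the Kupffer mean and MoM replicate 2 at 0.279% to 0.743%.

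The 9 genes that fell did so in both MoM libraries. Fmn1 (chr2:113327736-113716767), a formin that nucleates actin filaments, had 51.9 and 45.7 CPM in Kupffer cells and 11.5 and 11.1 in MoM. The fall was 4.31-fold, with a log2 fold change of -2.11 ± 0.23 (edgeR, adjusted p = 0.026). Dock4, an activator of the small GTPase Rac, had 130 and 122 CPM in Kupffer cells and 48.3 and 38.8 in MoM (edgeR, adjusted p = 0.0357). Pgm2l1, an enzyme of sugar phosphate metabolism, had 60.3 and 63.1 CPM in Kupffer cells and 24.0 and 23.0 in MoM (edgeR, adjusted p = 0.0369). In these genes the 2 MoM libraries lay close together, unlike in Clec4f. With 2 libraries per group such closeness makes a call easier, so it is partly given by the test. Ago3, an Argonaute protein, Cep290, a protein of the ciliary base, and Zeb2os, a transcript antisense to Zeb2, fell by 2.05, 1.85 and 1.74 on the log2 scale. Ago3 had 30.8 and 34 CPM in Kupffer cells and 7.35 and 8.27 in MoM. Cep290 had 39.2 and 36.3 CPM in Kupffer cells and 11.2 and 9.65 in MoM, and Zeb2os had 44 and 45 against 15 and 11.7. Zeb2os lies within Zeb2 on the other strand, and since the strand setting of the counting is not given, its reads cannot be told apart from those of Zeb2. Zeb2, a regulator needed for Kupffer cell identity, had 469 and 623 CPM in Kupffer cells and 253 and 204 in MoM (edgeR, adjusted p = 0.0788). The other 3 genes that fell, Gm8979, Gm10336 and F830016B08Rik, bear no functional name and are named here after their values were seen. Of the 9, 8 had a transcript length, and 6 of those lay in the longest of 4 equal length classes of the genes tested. Over all genes, the median log2 fold change was 0.217, 0.123, 0.0766 and 0.0339 from the class of shortest to that of longest transcripts, and the part of length in these falls was not tested.

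Genes that define Kupffer cells were lower in both MoM libraries, by very different amounts. All 16 of the listed Kupffer surface and secreted genes had both MoM libraries below both Kupffer libraries, an order found for 29.7% of all genes tested, and 15 of the 16 had a gap of at least 2-fold, against 5.11% of all genes. Their levels in MoM replicate 1 were 24.05% to 48.25% of the Kupffer mean, and in MoM replicate 2 they were 0.279% to 14.34%. With both MoM libraries in the fit, edgeR called 0 of them, 4 had an unadjusted p below 0.05, and DESeq2 called 6 lower (6.79% of all genes). Without MoM replicate 1, 14 of the 16 fell (2.13% of all genes), and the median log2 fold change went from -2.62 to -6.61. Siglec1, a sialic acid receptor of tissue macrophages that is not on the list, had 2134 and 2473 CPM in Kupffer cells, 487 in MoM replicate 1 and 14.8 in MoM replicate 2. Its adjusted p was 0.217 with both MoM libraries and 0.0348 without MoM replicate 1 (edgeR).

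Receptors and secreted proteins of Kupffer cells shared this pattern. Vsig4, a receptor for complement fragments, had 2643 and 2415 CPM in Kupffer cells, 712 in MoM replicate 1 and 20 in MoM replicate 2. Cd5l, a secreted protein of macrophages that changes lipid handling, had 8482 and 7991 CPM in Kupffer cells, 2584 in MoM replicate 1 and 47.2 in MoM replicate 2. Timd4, a receptor for phosphatidylserine on dying cells, had 808 and 808 CPM in Kupffer cells, 242 in MoM replicate 1 and 8.43 in MoM replicate 2. In each, MoM replicate 1 lay between the Kupffer libraries and MoM replicate 2, and the groups did not overlap. Among the 12 largest falls once MoM replicate 1 was left out were also Folr2, a folate receptor, Cd163, which takes up haemoglobin bound to haptoglobin, Fcna, which binds sugars on microbes, and C6, a component of the membrane attack complex. Sdc2, a heparan sulphate proteoglycan, was nearer in the 2 MoM libraries, with 38.2 and 37.6 CPM in Kupffer cells, 10.3 in MoM replicate 1 and 5.44 in MoM replicate 2. It was the only gene of this list called when the 4 WT libraries were fitted alone (edgeR, adjusted p = 0.0274), and stood at 0.0844 with all 8.

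Genes nearly confined to the Kupffer libraries by the values of MoM replicate 2 shared one range in MoM replicate 1. A set of 98 genes had at least 10 CPM in Kupffer cells and at most 5% of that level in MoM replicate 2. Their level in MoM replicate 1 had a median of 29.13% of the Kupffer mean, with quartiles of 24.54% and 32.26%, and 85 of the 98 lay between 20% and 45%. With both MoM libraries in the fit, edgeR called 0 of the 98 lower (53 had an unadjusted p below 0.05). DESeq2 called 71 lower (6.79% of all genes). The set was chosen by the values of MoM replicate 2, so the values of that library in it are given by the choice. The falls called are partly given by it too, and cannot be weighed against the share of all genes. The values of MoM replicate 1 did not enter the choice. Whether these transcripts came from Kupffer cells among the collected cells, or from MoM expressing Kupffer genes, cannot be told apart in bulk RNA.

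Some other macrophage programmes had medians between those of these genes and the Kupffer level. Complement components, which Kupffer cells secrete into the blood, had a median of 34.73% of the Kupffer level in MoM replicate 1 and 3.156% in MoM replicate 2. The listed targets of the sterol receptor LXR, mainly lipid transporters, had 39.66% and 19.94%, and genes of iron and heme handling had 41.08% and 22.05%. The median was 63.82% and 40.43% over 40 lysosomal genes, and 65.46% and 43.12% over 24 genes induced by type I interferon. Over 15 Toll-like receptors it was 57.43% and 68.54%. Only in the last of these groups was the median lower in MoM replicate 1 than in MoM replicate 2. The same medians over all genes tested were 105.9% and 107.4%. Other listed groups lay above the Kupffer level or were split. Over 11 lipid-associated macrophage genes the medians were 292.9% and 273.7%, with 8 log2 fold changes positive and 3 negative. Over 24 C-type lectins they were 186.4% and 247.7%, with 15 positive and 9 negative. Of 10 Fc receptors, 5 were positive and 5 negative.

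**Figure D2:**
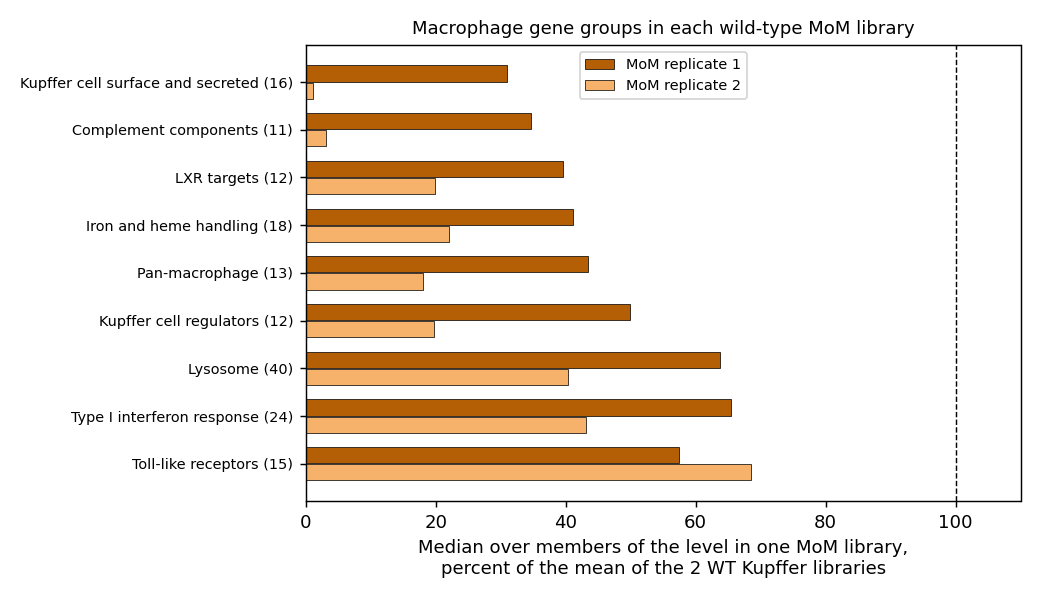
Median level of the members of 9 gene groups in each wild-type MoM library, as a percent of the mean of the 2 wild-type Kupffer libraries (bars, 1 per library; number of members tested in parentheses; dashed line, the Kupffer level). The bars of MoM replicate 2 run from 1.033% for Kupffer surface genes to 68.54% for Toll-like receptors, and those of MoM replicate 1 from 30.93% to 65.46%. Groups with medians above the Kupffer level, such as C-type lectins, are not drawn.

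Of 11 complement components tested, 9 had both MoM libraries below both Kupffer libraries (29.7% of all genes). EdgeR called 0 with all 8 libraries (4 at an unadjusted p below 0.05) and 7 lower without MoM replicate 1 (2.13% of all genes), and DESeq2 called 7 lower (6.79%). C4b, a component of the classical pathway, had 1898 and 2484 CPM in Kupffer cells, 556 in MoM replicate 1 and 46.2 in MoM replicate 2. C2, its partner in the convertase, had 219 and 217 CPM in Kupffer cells, 70.9 in MoM replicate 1 and 6.88 in MoM replicate 2. Cfp, the properdin that stabilises the alternative convertase, had 2453 and 2548 CPM in Kupffer cells, 948 in MoM replicate 1 and 189 in MoM replicate 2. All 3 were lowest in MoM replicate 2 and did not overlap between the groups.

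Iron and lipid genes were lower in both MoM libraries. Of 18 iron and heme genes, 14 had both MoM libraries below both Kupffer libraries (29.7% of all genes). Their median log2 fold change was -1.662 with all 8 libraries and -2.192 without MoM replicate 1. With all 8 libraries edgeR called 0, with 10 at an unadjusted p below 0.05, and DESeq2 called 11 lower (6.79% of all genes). Slc48a1, the heme exporter of the phagolysosome, had 258 and 254 CPM in Kupffer cells and 110 and 67.2 in MoM (edgeR, log2 -1.53 ± 0.32, adjusted p = 0.077). Ncoa4, the receptor that sends ferritin to the lysosome, had 540 and 454 CPM in Kupffer cells and 178 and 103 in MoM (edgeR, adjusted p = 0.0853). Both MoM libraries were low for these genes, and both genes passed when the 4 WT libraries were fitted alone, with adjusted p of 0.0368 and 0.0361 in edgeR. Abca1, which loads cholesterol onto apolipoprotein A1, had 1196 and 1098 CPM in Kupffer cells, 222 in MoM replicate 1 and 54.3 in MoM replicate 2. Among 12 LXR targets all had a negative log2 fold change, a sign found for 44.9% of all genes tested. Both MoM libraries lay below both Kupffer libraries for 11 of them (29.7% of all genes). EdgeR called 0 with all 8 libraries (6 at an unadjusted p below 0.05), and DESeq2 called 8 lower (6.79% of all genes).

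Genes shared by macrophages were also lower. Of 13 pan-macrophage genes, 12 had both MoM libraries below both Kupffer libraries (29.7% of all genes). EdgeR called 0 with all 8 libraries (10 at an unadjusted p below 0.05) and 6 lower without MoM replicate 1 (2.13% of all genes), and DESeq2 called 10 lower (6.79%). Cd68, a glycoprotein of macrophage lysosomes, had 886 and 896 CPM in Kupffer cells and 393 and 260 in MoM (edgeR, adjusted p = 0.0745). Cybb, the catalytic subunit of the phagocyte oxidase, stood at almost one level in the MoM libraries, with 768 and 742 CPM against 1970 and 1705 in Kupffer cells (edgeR, adjusted p = 0.123). Axl, a receptor for apoptotic cells, had 2678 and 2705 CPM in Kupffer cells, 817 in MoM replicate 1 and 190 in MoM replicate 2, and Lrp1, an endocytic receptor, had 6236 and 6728, 1290 and 349 in the same order. The whole group of dead cell clearance was mixed, since 7 of its 16 tested members had a positive log2 fold change and 9 a negative one. Mfge8, which bridges dying cells to phagocytes and is also made by dendritic cells, had 1.29 and 4 CPM in Kupffer cells and 43.3 and 59.2 in MoM (edgeR, adjusted p = 0.149).

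Most listed transcription factors of Kupffer cells had lower levels in MoM, without passing edgeR's test on all 8 libraries. Of 12 regulators, 11 had a negative log2 fold change (44.9% of all genes). Both MoM libraries lay below both Kupffer libraries for 10 (29.7% of all genes). EdgeR called 0 with all 8 libraries (6 at an unadjusted p below 0.05). DESeq2 called 5 lower (6.79% of all genes) and 1 higher (11.7%). Spic, needed for iron-recycling macrophages, had 94.3 and 106 CPM in Kupffer cells, 42.7 in MoM replicate 1 and 10.7 in MoM replicate 2. Rxra, the partner of LXR, had 888 and 956 CPM in Kupffer cells, 296 in MoM replicate 1 and 77.3 in MoM replicate 2. The log2 fold changes of Spic and Rxra were -1.905 and -2.304 with all 8 libraries (edgeR, adjusted p = 0.142 and 0.111). Without MoM replicate 1 these log2 fold changes were -3.232 and -3.584. Rbpj, the DNA-binding partner of Notch, went the other way, with 32.2 and 32.9 CPM in Kupffer cells and 156 and 316 in MoM. Its adjusted p was 0.0616 with all 8 libraries, 0.0337 without MoM replicate 1 and 0.0261 on the 4 WT libraries (edgeR).

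Most lysosomal genes had lower levels in MoM, with exceptions. Of 40 lysosomal genes, 34 had a negative log2 fold change (44.9% of all genes). Both MoM libraries lay below both Kupffer libraries for 29 (29.7% of all genes). With all 8 libraries edgeR called 0 lower and 1 higher, with 25 at an unadjusted p below 0.05, and DESeq2 called 21 lower (6.79% of all genes) and 3 higher (11.7%). Without MoM replicate 1, 10 members fell (2.13% of all genes) and Cd63 rose. With all 8 libraries Cd63, a tetraspanin of late endosomes, had 3.56 and 2.61 CPM in Kupffer cells, 13 in MoM replicate 1 and 33.0 in MoM replicate 2 (edgeR, adjusted p = 0.0662).

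Lysosomal genes are known to carry a short palindromic element near their start that is bound by TFEB and related factors. The promoters of the listed genes were therefore searched for TCACGTG on either strand in windows from 250 bases before to 50 bases after each RefSeq start (GRCm38.p6). The letters were present in 12 of the 29 lysosomal genes with a window (41.4%), against 6.51% of 11653 tested genes and 4.29% of 27025 genes in all. The window of Lamp1, a membrane protein of the lysosome, is shown because it had 4 separate matches, and it was chosen after its letters were seen. It covers chr8:13158911-13159210 on the plus strand, and the matches, in capitals, begin 62, 45, 28 and 16 bases before the start. A match is a run of letters and not a measured binding site.
Lamp1: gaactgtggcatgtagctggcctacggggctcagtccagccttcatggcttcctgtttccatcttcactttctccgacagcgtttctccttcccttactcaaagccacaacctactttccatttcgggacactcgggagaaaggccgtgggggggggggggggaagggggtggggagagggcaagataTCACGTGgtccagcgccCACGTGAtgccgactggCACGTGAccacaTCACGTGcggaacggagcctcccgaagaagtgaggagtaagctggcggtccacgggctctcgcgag

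Some receptors and enzymes of monocytes rose in MoM. Of 20 genes of classical monocytes, 4 rose (1.11% of all genes tested did), and 16 had both MoM libraries above both Kupffer libraries, an order found for 38.5% of all genes tested. Ccr2 rose by 4.92 ± 0.52 on the log2 scale (edgeR, adjusted p = 0.026). Napsa, an aspartic protease of monocytes and antigen-presenting cells, had 2.30 and 1.90 CPM in Kupffer cells and 217 and 444 in MoM (edgeR, adjusted p = 0.026), and S100a6 had 1.15 and 1.20 against 58.0 and 136 (edgeR, adjusted p = 0.0379). None of these levels overlapped between the groups. Itgam, the alpha chain of the CD11b integrin, was present in Kupffer cells too, with 128 and 111 CPM against 210 in MoM replicate 1 and 547 in MoM replicate 2 (edgeR, adjusted p = 0.166).

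Genes of nonclassical, patrolling monocytes went in both directions. Ace (chr11:105967945-105989964), the angiotensin-converting enzyme, had 3.66 and 3.70 CPM in Kupffer cells and 176 and 294 in MoM, a rise of 6.00 ± 0.58 on the log2 scale (edgeR, adjusted p = 0.026). Pglyrp1, which binds bacterial peptidoglycan, had 0.934 and 0.523 CPM in Kupffer cells and 21.8 and 73.3 in MoM (edgeR, adjusted p = 0.0393). Ceacam1, an adhesion receptor, was expressed in both, with 30.6 and 29.6 CPM in Kupffer cells and 86.6 and 141 in MoM (edgeR, adjusted p = 0.0478). These were the 3 of 11 genes of the group that were called (1.11% of all genes rose). Of the 11, 7 had both MoM libraries above both Kupffer libraries (38.5% of all genes), and 4 had both below (29.7%). Each of those 4 had a gap of at least 2-fold. The 4 were Itgal, the alpha chain of the LFA-1 integrin, Adgre4, Treml4 and Cd300e, which are named after their values were seen, and DESeq2 called 3 members lower. Adgre4 had 732 and 721 CPM in Kupffer cells and 250 and 147 in MoM (edgeR, adjusted p = 0.114). Cx3cr1, the fractalkine receptor that marks these monocytes, had 18.8 and 3.36 CPM in Kupffer cells and 42.4 and 66.8 in MoM (edgeR, adjusted p = 0.139).

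Genes shared by conventional dendritic cells had higher levels in MoM. All 11 shared dendritic cell genes had a positive log2 fold change, a sign found for 55.1% of all genes tested. Of the 11, 6 rose with all 8 libraries in the fit (1.11% of all genes) and 10 on the 4 WT libraries alone (8.1%). Itgax (chr7:128129547-128150657), the CD11c integrin chain, had 26.4 and 19.1 CPM in Kupffer cells and 586 and 920 in MoM, a 33.1-fold rise (log2 5.05 ± 0.64, edgeR, adjusted p = 0.0341). Flt3, the receptor for the growth factor of dendritic cell precursors, had 1.65 and 1.04 CPM in Kupffer cells and 220 and 313 in MoM (edgeR, adjusted p = 0.0478). Bcl11a, a transcription factor of lymphoid and dendritic cells, had 1.11 and 0.821 CPM in Kupffer cells and 27.6 and 54.6 in MoM (edgeR, adjusted p = 0.0326). The other 3 were Kmo, an enzyme of tryptophan breakdown, Traf1, an adaptor of TNF receptors, and Rogdi. Kmo had 1.69 and 2.20 CPM in Kupffer cells and 53.5 and 91.9 in MoM. Traf1 had 2.91 and 2.39 CPM in Kupffer cells and 65.9 and 142 in MoM, and Rogdi had 20.8 and 24.8 against 68.1 and 110.

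The subsets of dendritic cells did not share this equally. Over all genes tested, 1.11% rose and 38.5% had both MoM libraries above both Kupffer libraries. Of 12 genes of the cDC2 subset, which presents antigen to CD4 T cells, 3 rose (Cd209a, Mgl2 and Tnip3) and 10 had both MoM libraries above both Kupffer libraries. Of 12 genes of the cDC1 subset, which cross-presents to CD8 T cells, 1 rose and 8 had that order. This was Naaa, a hydrolase of fatty acid amides, with 63.5 and 54.9 CPM in Kupffer cells and 313 and 214 in MoM (edgeR, adjusted p = 0.0382). The median log2 fold change was 4.34 over the cDC2 genes and 1.01 over the cDC1 genes, and the difference between the lists was not tested. Of 9 genes of plasmacytoid dendritic cells, which make type I interferon, 5 had both MoM libraries above both Kupffer libraries. EdgeR called 0, with 2 at an unadjusted p below 0.05, and DESeq2 called 2 higher (11.7% of all genes).

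Mature dendritic cells, which have taken up antigen and moved toward lymph nodes, have a programme of their own. All 11 listed genes had both MoM libraries above both Kupffer libraries (38.5% of all genes tested). Of the 11, 10 had a gap of at least 2-fold (16.7% of all genes tested). In all 11, MoM replicate 2 exceeded MoM replicate 1. Ccr7 (chr11:99144196-99155077), the receptor that guides them to lymph nodes, had 3.59 and 4.03 CPM in Kupffer cells, 203 in MoM replicate 1 and 650 in MoM replicate 2, a 112-fold rise (log2 6.80 ± 0.99, edgeR, adjusted p = 0.0409). Ccl17 (chr8:94810453-94812036), a chemokine that draws CCR4-bearing T cells, had 0.575 and 0.635 CPM in Kupffer cells and 28.2 and 52.8 in MoM (log2 6.06 ± 0.58, edgeR, adjusted p = 0.026). Apol7c had 3.70 and 4.78 CPM in Kupffer cells and 33.1 and 76.3 in MoM (edgeR, adjusted p = 0.0478). These 3 genes were called with all 8 libraries (1.11% of all genes rose), and 9 of the 11 rose on the 4 WT libraries alone (8.1%). The summed level of the list was 49.4 and 53.7 CPM in Kupffer cells, 748.6 in MoM replicate 1 and 2093 in MoM replicate 2. Whether these genes came from MoM themselves or from dendritic cells among the collected cells cannot be told apart here.

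**Figure D3:**
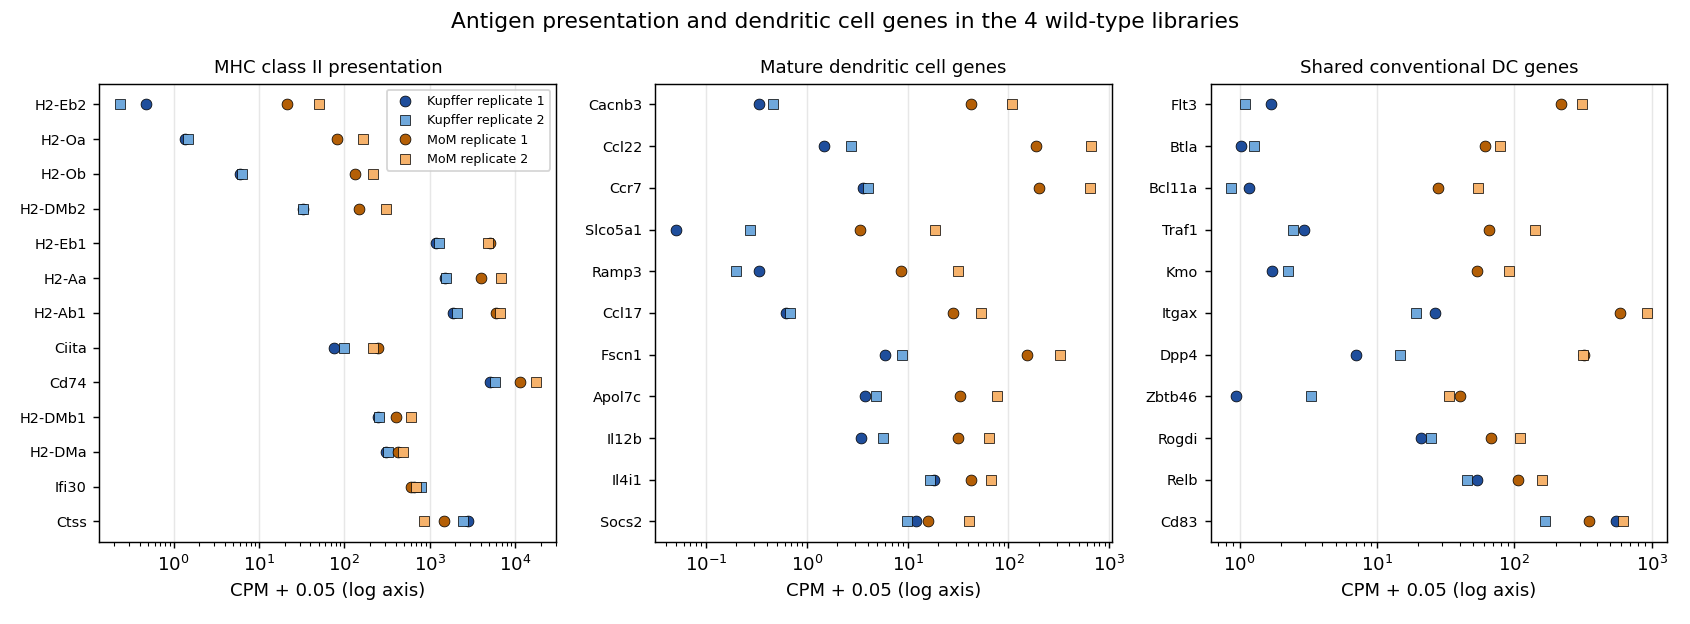
Levels in the 4 wild-type libraries of 13 genes of MHC class II presentation, 11 genes of mature dendritic cells and 11 genes shared by conventional dendritic cells, as CPM plus 0.05 on log axes; each symbol is 1 library. Genes at the top of each panel are separated most; Ifi30 and Cd83 overlap between the groups and Ctss is lower in MoM.

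Antigen presentation on MHC class II differed gene by gene. Peptides are loaded onto class II molecules by H2-DM, and H2-O, made of the Oa and Ob chains, restrains H2-DM. Of 13 genes of the group, 4 rose (1.11% of all genes tested did). Both MoM libraries lay above both Kupffer libraries for 11 of them (38.5% of all genes). H2-Oa (chr17:34092340-34095234) had 1.29 and 1.42 CPM in Kupffer cells and 82.4 and 164 in MoM, a 90.7-fold rise (log2 6.50 ± 0.69, edgeR, adjusted p = 0.026). H2-Ob (chr17:34238903-34254414) had 5.89 and 6.20 CPM in Kupffer cells and 132 and 218 in MoM, a 28.9-fold rise (log2 4.85 ± 0.54, edgeR, adjusted p = 0.026). Both chains of the inhibitor were thus low in both Kupffer libraries and higher in both MoM libraries. H2-Eb2 (chr17:34325665-34341412), a less-studied class II beta chain, had 0.431 and 0.187 CPM in Kupffer cells and 21.5 and 51.1 in MoM (log2 6.85 ± 0.84, edgeR, adjusted p = 0.0338). H2-DMb2 (chr17:34143307-34151555), a beta chain of the loading factor, had 32.9 and 32.5 CPM in Kupffer cells and 150 and 308 in MoM (log2 2.81 ± 0.36, edgeR, adjusted p = 0.0341). The summed level of the group was 13873 and 14692 CPM in Kupffer cells, 30207 in MoM replicate 1 and 39353 in MoM replicate 2. The group as a whole was thus abundant in every library. B cells express H2-O strongly, and most markers of B cells were higher in MoM too. Of 10 B cell markers, 8 had both MoM libraries above both Kupffer libraries with a gap of at least 2-fold (16.7% of all genes). The median log2 fold change was 4.29. EdgeR called 0 of them with all 8 libraries (9 at an unadjusted p below 0.05). On the 4 WT libraries it called 6 higher (8.1% of all genes) and 1 lower (2.79%), and DESeq2 on all libraries called 7 higher (11.7%). Cd79a, a chain of the B cell receptor complex, had 0.682 and 1.64 CPM in Kupffer cells and 31.7 and 60.4 in MoM, 39.5-fold higher (edgeR, adjusted p = 0.0624). Ms4a1, which encodes CD20, had 0.144 and 0.859 CPM in Kupffer cells and 14.8 and 31.7 in MoM, 46.1-fold higher (edgeR, adjusted p = 0.081). The summed level of the list was 136.1 and 132.5 CPM in Kupffer cells and 193.5 and 260.3 in MoM, and Cd22 alone made up 108 and 107 CPM of it in Kupffer cells and 56.8 in each MoM library. The part of B cells in the H2-O values was not tested.

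Class II promoters carry a conserved box that holds CCAAT, read on the opposite strand as ATTGG, and is bound by NF-Y. CCAAT was searched on both strands in the same windows. It was present in 8 of the 10 genes of the group with a window (80%), against 42.7% of 11653 tested genes and 41.1% of 27025 genes in all. The windows of the 4 genes that rose are shown because each holds 1 match on the minus strand, in capitals. Their coordinates are chr17:34325425-34325724 for H2-Eb2, chr17:34144999-34145298 for H2-DMb2, chr17:34092129-34092428 for H2-Oa and chr17:34238655-34238954 for H2-Ob, each on the plus strand. The matches begin 100, 90, 43 and 57 bases before the RefSeq start in that order. H2-DMb2 starts in RefSeq inside the span that GENCODE gives it.
H2-Eb2: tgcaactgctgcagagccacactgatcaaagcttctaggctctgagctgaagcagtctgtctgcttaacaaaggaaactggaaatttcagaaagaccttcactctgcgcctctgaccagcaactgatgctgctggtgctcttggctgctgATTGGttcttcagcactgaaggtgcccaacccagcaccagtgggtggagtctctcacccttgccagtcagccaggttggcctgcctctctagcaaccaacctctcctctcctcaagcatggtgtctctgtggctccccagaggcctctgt
H2-DMb2: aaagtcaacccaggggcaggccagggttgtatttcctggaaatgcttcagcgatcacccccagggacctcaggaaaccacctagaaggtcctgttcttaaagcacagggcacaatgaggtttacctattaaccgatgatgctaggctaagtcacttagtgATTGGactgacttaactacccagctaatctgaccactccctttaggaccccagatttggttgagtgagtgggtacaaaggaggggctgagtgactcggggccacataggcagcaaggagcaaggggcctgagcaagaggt
H2-Oa: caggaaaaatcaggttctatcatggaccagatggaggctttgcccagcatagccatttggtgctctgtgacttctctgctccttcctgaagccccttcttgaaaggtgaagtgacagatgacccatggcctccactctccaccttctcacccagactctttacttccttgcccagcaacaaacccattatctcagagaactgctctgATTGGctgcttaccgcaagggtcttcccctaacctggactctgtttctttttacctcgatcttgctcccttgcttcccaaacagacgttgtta
H2-Ob: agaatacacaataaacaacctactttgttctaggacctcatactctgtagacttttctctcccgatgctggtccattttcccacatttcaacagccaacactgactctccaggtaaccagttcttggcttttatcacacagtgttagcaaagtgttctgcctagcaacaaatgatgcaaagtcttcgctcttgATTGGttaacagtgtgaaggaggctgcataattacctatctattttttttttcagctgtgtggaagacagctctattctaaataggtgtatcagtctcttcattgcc
The match lies in all 4 windows within the last 100 bases before the start, and members of the group that were not called hold it too.

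Ligands that steer T cells changed singly. Of 14 costimulatory and checkpoint genes tested, 2 rose, against 1.11% of all genes. Icosl, the ligand of ICOS, had 21.1 and 21.4 CPM in Kupffer cells and 99.1 and 136 in MoM (log2 2.47 ± 0.36, edgeR, adjusted p = 0.0409). Pdcd1lg2, which encodes the PD-1 ligand PD-L2, had 1.58 and 2.09 CPM in Kupffer cells and 7.94 and 12.2 in MoM (log2 2.45 ± 0.33, edgeR, adjusted p = 0.0369). Both genes had no overlap between the groups and similar levels in the 2 MoM libraries. Among 16 chemokine receptors, Ccr2 and Ccr7 rose and 14 had both MoM libraries above both Kupffer libraries, an order found for 38.5% of all genes tested. Of 22 chemokines tested Ccl17 rose, 11 had that order and 6 the reverse, which is found for 29.7% of all genes.

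G-protein coupled receptors for lipids and metabolites gave 5 calls among 27 genes, all of them rises (1.11% of all genes rose). Ltb4r1, the high-affinity leukotriene B4 receptor, had 0.934 and 1.53 CPM in Kupffer cells and 24.7 and 38.3 in MoM (log2 4.67 ± 0.39, edgeR, adjusted p = 0.026). Gpr183, a receptor for oxysterols that positions immune cells, had 1.33 and 1.79 CPM in Kupffer cells and 24.9 and 59.5 in MoM (edgeR, adjusted p = 0.0338). Ffar2, which senses short-chain fatty acids made by gut bacteria, had 0.215 and 0 CPM in Kupffer cells and 12.1 and 26.3 in MoM (edgeR, adjusted p = 0.0424). For these receptors both MoM libraries were high and the Kupffer libraries held few counts. Gpr132, at 5.42 and 2.58 CPM in Kupffer cells, reached 190 in MoM replicate 1 and 501 in MoM replicate 2 (edgeR, adjusted p = 0.0478), and Gpr141 went from 1.08 and 0.224 to 39.5 and 68.4 (edgeR, adjusted p = 0.0352). The list had a median log2 fold change of 2.87, or 2.54 with the 3 genes without counts in Kupffer cells set to their lower bound.

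No growth factor passed the test on all 8 libraries. Of 19, 9 had both MoM libraries above both Kupffer libraries and 6 below, near the 38.5% and 29.7% of all genes with those orders. With all 8 libraries edgeR called 0 (7 at an unadjusted p below 0.05), and DESeq2 called 6 higher (11.7% of all genes) and 2 lower (6.79%). Pdgfc, a mitogen of stellate cells, had 75.4 and 68.0 CPM in Kupffer cells, 18 in MoM replicate 1 and 5.89 in MoM replicate 2 (edgeR, adjusted p = 0.0905 with all 8 libraries and 0.0412 without MoM replicate 1). Osm, a cytokine of the interleukin 6 family, had 0.934 and 0.299 CPM in Kupffer cells, 29.2 in MoM replicate 1 and 122 in MoM replicate 2 (edgeR, adjusted p = 0.0592). Areg, a ligand of the EGF receptor, had no count in either Kupffer library and 1.79 and 7.62 CPM in MoM, at least 85.7-fold higher against a floor of 3 counts over both Kupffer libraries (edgeR, adjusted p = 0.0956). Pdgfc was thus higher in both Kupffer libraries, and Osm and Areg in both MoM libraries. On the 4 WT libraries alone, edgeR called 7 of the 19 higher (8.1% of all genes) and 1 lower (2.79%).

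Most listed sensors of microbes and interferon-induced genes had lower levels in MoM, without passing the test on all 8 libraries. Of 15 Toll-like receptors, 10 had both MoM libraries below both Kupffer libraries (29.7% of all genes) and 2 above (38.5%). EdgeR called 0 with all 8 libraries (7 at an unadjusted p below 0.05). DESeq2 called 4 lower (6.79% of all genes) and 1 higher (11.7%). Tlr8 had 265 and 296 CPM in Kupffer cells, 70.1 in MoM replicate 1 and 27.0 in MoM replicate 2 (edgeR, adjusted p = 0.0657), and Tlr7, the other sensor of single-stranded RNA, had 186 and 211, 71.8 and 38.8 (edgeR, adjusted p = 0.0788). Tlr4, the endotoxin receptor, had 124 and 144 CPM in Kupffer cells, 38.4 in MoM replicate 1 and 12.3 in MoM replicate 2 (edgeR, adjusted p = 0.0939). All 3 fell once MoM replicate 1 was left out. Tlr11, which senses profilin of protozoa, was higher in MoM, at 25.1 and 28.0 CPM against 7.33 and 5.67 in Kupffer cells (edgeR, adjusted p = 0.0657). Of 24 interferon-induced genes, 16 had both MoM libraries below both Kupffer libraries (29.7% of all genes). EdgeR called 0 with all 8 libraries (10 at an unadjusted p below 0.05), and DESeq2 called 9 lower (6.79% of all genes). Only Irf7, their amplifier, was lower by a gap of at least 2-fold (5.11% of all genes). It had 936 and 902 CPM in Kupffer cells, 377 in MoM replicate 1 and 113 in MoM replicate 2. Its log2 fold change was -1.908 with all 8 libraries (edgeR, adjusted p = 0.116) and -3.03 without MoM replicate 1.

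Ribosomal protein genes had higher levels in MoM, by small amounts. All 26 cytosolic ribosomal protein genes had both MoM libraries above both Kupffer libraries (38.5% of all genes). The median log2 fold change was 0.91, and 1 gene was called higher (1.11% of all genes). This was Rps16, at 97.8 and 91.2 CPM in Kupffer cells and 200 and 226 in MoM (log2 1.17 ± 0.18, edgeR, adjusted p = 0.0478). Ribosomal protein transcripts are short, and the class of shortest transcripts over all genes had a median of 0.217. Of 26 cell cycle genes, 22 had both MoM libraries above both Kupffer libraries; edgeR called 0 (15 at an unadjusted p below 0.05) and DESeq2 called 7 higher (11.7% of all genes). Hmgb2, a chromatin protein of dividing cells, had 48.3 and 44.2 CPM in Kupffer cells and 89.4 and 126 in MoM (edgeR, adjusted p = 0.0616). Nuclear genes of oxidative phosphorylation had a median log2 fold change of 0.03 over 21 genes, which was negative in 11 of the alternative fits. Among 17 glycolytic genes, Pfkp (chr13:6579768-6648777), the platelet-type phosphofructokinase, rose from 63.3 and 57.7 CPM to 157 and 198 (log2 1.55 ± 0.23, edgeR, adjusted p = 0.045), and the median of the group was 0.10, against 0.11 over all genes tested.

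Markers of other cells moved with the groups. Of 134 tested members of 13 marker lists for other cells, 125 had a positive log2 fold change, a sign found for 55.1% of all genes. Both MoM libraries lay above both Kupffer libraries for 97 of them (38.5% of all genes). With all 8 libraries, 1 was called higher (1.11% of all genes). The 16 genes of sinusoidal endothelium summed to 675.4 and 1123 CPM in Kupffer cells, 8469 in MoM replicate 1 and 3511 in MoM replicate 2. Each of the 16 was higher in MoM replicate 1 than in MoM replicate 2. On the 4 WT libraries alone edgeR called 13 of them higher (8.1% of all genes). Kdr, the VEGF receptor of endothelium, had 17.0 and 60.7 CPM in Kupffer cells, 946 in MoM replicate 1 and 277 in MoM replicate 2 (edgeR, adjusted p = 0.23).

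Markers of lymphocytes and granulocytes were highest in MoM replicate 2. The NK cell genes summed to 10.8 and 13.6 CPM in Kupffer cells, 51.2 in MoM replicate 1 and 371.5 in MoM replicate 2, and the neutrophil genes to 130.9 and 147.5, 125 and 605.4. Mast cell and basophil genes summed to 4.17 and 9.33 CPM in Kupffer cells and to 204.2 and 431.7 in MoM. Cholangiocyte genes summed to 44.8 and 44.6 CPM in Kupffer cells, 93.5 in MoM replicate 1 and 458.4 in MoM replicate 2. Krt19, a keratin of bile ducts, had no count in either Kupffer library and 1.61 and 7.21 CPM in MoM, at least 80.2-fold higher against the same floor. Cd3e, a chain of the T cell receptor complex, stood at 0.97 and 3.29 CPM in Kupffer cells and at 3.12 and 9.39 in MoM, which overlap. Prg2, a granule protein of eosinophils, was the called member, with no count in Kupffer cells and 1.05 and 2.54 CPM in MoM, at least 32.7-fold higher (edgeR, adjusted p = 0.0493). At the sequencing depth of these libraries 1 count is 0.0309 to 0.0373 CPM, so each of these genes was read by many counts in MoM replicate 2. The part of these cells in the genes that rose was not tested, and genes such as Flt3, Hdc and Kit are expressed by more than one of them.

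**Figure D4:**
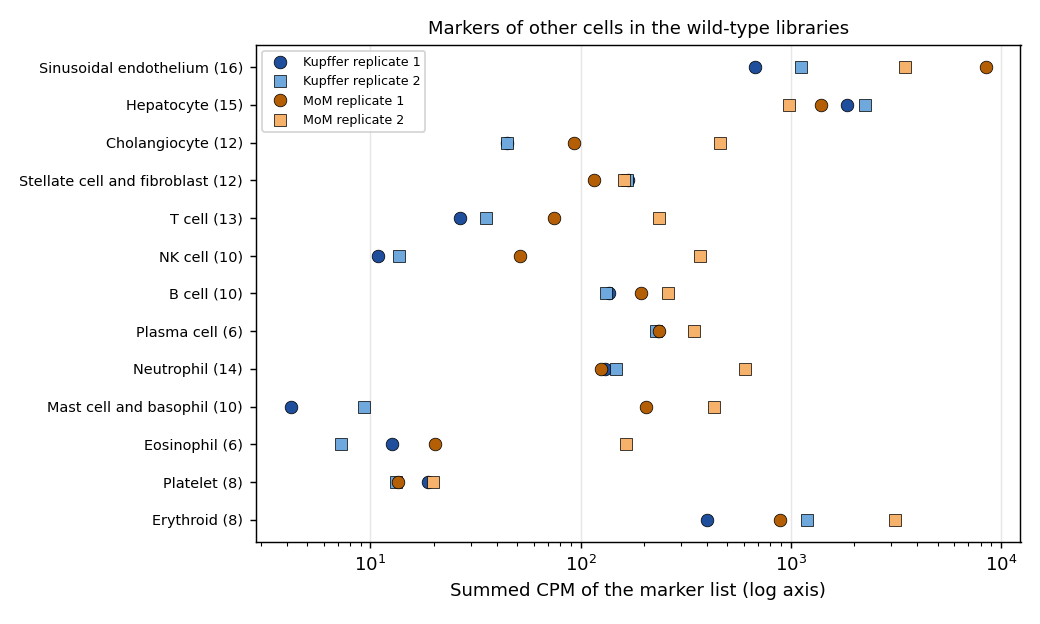
Summed CPM (log axis) of marker lists for other cell types in the 4 wild-type libraries, with the number of genes per list in parentheses; each symbol is 1 library. Endothelial markers are highest in MoM replicate 1 (8469 CPM), and cholangiocyte, T cell, NK cell, neutrophil and eosinophil markers are highest in MoM replicate 2.

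Genes induced by tissue dissociation did not separate the groups. The listed immediate early and heat shock genes summed to 21334 and 35609 CPM in Kupffer cells and to 25992 and 15666 in MoM, so that the 2 groups overlapped. Jun, an immediate early factor, had 2117 and 4160 CPM in Kupffer cells, 2441 in MoM replicate 1 and 681 in MoM replicate 2 (edgeR, adjusted p = 0.335). Hepatocyte genes summed to 1860 and 2254 CPM in Kupffer cells and to 1388 and 981.5 in MoM. The transferrin gene Trf, which macrophages also express, made up 1783 and 1710 CPM of that sum in Kupffer cells and 684 and 258 in MoM. It was the only one of the 15 genes with a negative log2 fold change; the other 14 had a positive one, with a median of 1.00 over the 15. EdgeR called 0 of the 15 with all 8 libraries (1 at an unadjusted p below 0.05), and DESeq2 called 1, lower. Alb, the albumin gene, had 37.9 and 320 CPM in Kupffer cells and 408 and 445 in MoM (edgeR, adjusted p = 0.707).

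The same comparison in TG mice used 4 other libraries, while the estimate of the spread was shared. There, 381 genes were called (2.5%), 281 higher in MoM (1.84%) and 100 lower (0.656%). Of the 169 genes that rose in WT, all 169 had a positive log2 fold change in TG, 168 had no overlap between the TG groups and 121 were called. Of the 9 that fell in WT, all 9 had a negative log2 fold change in TG, 6 had no overlap and 2 were called. The shared spread favours genes whose TG replicates also lay close, so the lack of overlap in TG is partly given by the choice. The shares of all genes with these signs and orders in TG are not reported here. Their median log2 fold change was 4.43 in WT and 3.37 in TG for the 169, which were chosen by their WT values. Mgl2 had 0.302 and 0.406 CPM in TG Kupffer cells and 93.2 and 95.7 in TG MoM, close to the WT values. Clec4f had 6558 and 2736 CPM in TG Kupffer cells and 125 and 45.6 in TG MoM, so neither TG MoM library held the share of Clec4f seen in WT MoM replicate 1. The listed Kupffer surface genes summed to 11474 and 498.7 CPM in WT MoM and to 709.3 and 631.3 in TG MoM. In TG, sinusoidal endothelium markers were highest in a Kupffer library, with 778.8 and 13463 CPM in TG Kupffer cells and 832.5 and 4006 in TG MoM, so the median log2 fold change of that list was 3.88 in WT and -1.74 in TG.

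**Figure D5:**
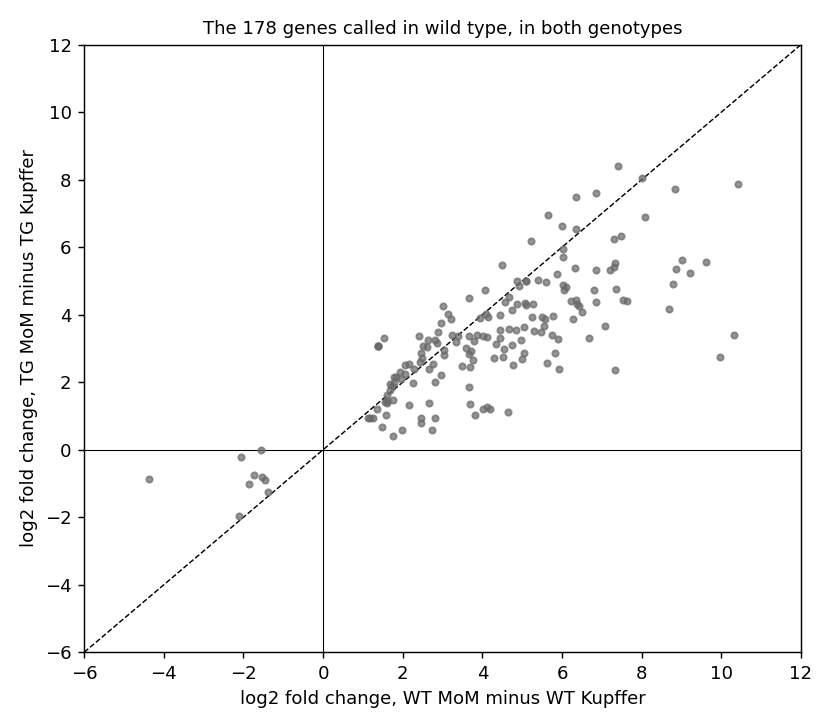
Log2 fold change of MoM against Kupffer cells in wild type (horizontal axis) and in TG (vertical axis) for the 178 genes called in wild type; each point is 1 gene and the dashed line marks equal values. The genes were chosen by their wild-type values, with the spread estimated on all 8 libraries, so the TG values are not fully independent of the choice. Of the points, 169 lie in the upper right and 9 in the lower left.

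The difference between the genotypes was tested as an interaction. EdgeR called 0 of 15254 genes, with 980 (6.425%) at an unadjusted p below 0.05, and DESeq2 called 47. Among the genes named here the smallest adjusted p was 0.626 (edgeR). Class II genes and those of mature dendritic cells had smaller values in TG, with medians of 0.25 against 1.68 and 2.59 against 6.06, and these differences did not pass the test for any named gene. For H2-Oa, the Kupffer libraries held 1.29 and 1.42 CPM in WT and 4.23 and 12.8 in TG, and the MoM libraries 82.4 and 164 in WT and 135 and 151 in TG. The H2-Oa levels in MoM therefore overlapped between the genotypes, while those in Kupffer cells did not. Markers of other cells differed between the TG Kupffer libraries: NK cell genes summed to 25.4 CPM in replicate 1 and 342.4 in replicate 2, T cell genes to 36.4 and 324.6, and mature dendritic cell genes to 71.1 and 308.3. Their part in the smaller TG values was not tested.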

How the data were processed

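RNA was sequenced in 8 libraries, of which the 4 WT ones are compared here; titles gave the group and replicate number. STAR 2.5.2b and the build mm10 (GRCm38) are named in the submitters' processing notes. The deposited files hold raw counts, 1 whole number per gene symbol; which counter, gene annotation and strand mode made them is not given in the sources used here. Of low counts, 65.04% to 67.63% were even in the WT libraries, as when both mates of a fragment are counted, so counting error is larger than the counts imply. Among the genes tested, 69 had counts identical to those of another symbol, and 0 of them were called.

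All 8 libraries were fitted as 4 groups in edgeR 4.0.16 (R 4.3.3): filterByExpr, which left 15254 of 24786 symbols, TMM scaling, the quasi-likelihood F-test and Benjamini-Hochberg adjustment over all genes, with calls below 0.05. Spread between replicates (biological coefficient of variation) was 0.507 over all genes; residual and prior degrees of freedom were 4 and 2.37. Standard errors are the log2 fold change divided by the root of F. The script was tested on simulated data. Positions are from GENCODE M21 and promoter windows (300 bases) from RefSeq GRCm38.p6.

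Genes were grouped in 52 lists (712 distinct symbols, 698 tested), of which 38 cover macrophages and functions and 13 other cells. Members, lists and the naming rule were chosen with earlier results of these data known. The rule names the 12 largest rises and up to 9 falls called at 10 CPM or more without overlap, the 12 largest such falls without MoM replicate 1, called members of each list or otherwise up to 4 with the smallest p, and label checks, leaving out predicted genes. A few named members are not reported here on their own. Alternatives were size factors, no filter, a replicate block, each library left out, the 4 WT libraries alone and DESeq2 1.42.0. Added after seeing the data were DESeq2 on those 4 and a fit without WT MoM replicate 1 and TG Kupffer replicate 2. Figures were drawn with matplotlib 3.10.9.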

Additional observations from a re-analysis of the deposited data

Results flagged for a closer look

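Gpnmb, a glycoprotein of lipid-laden macrophages, was higher in both MoM libraries than in both Kupffer libraries in WT and lower in both in TG. It had 3.45 and 2.69 CPM in WT Kupffer cells and 8.99 and 8.40 in WT MoM, against 17.5 and 19.6 in TG Kupffer cells and 14.1 and 15.2 in TG MoM. The log2 fold change of MoM against Kupffer cells was 1.5 in WT and -0.34 in TG, a difference of 1.84 that did not pass the interaction test over all genes (edgeR, adjusted p = 0.626). Neither genotype's own difference passed the test (edgeR, adjusted p = 0.06 in WT and 0.458 in TG).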

How the results depend on the processing

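The 178 calls in WT became 1585 on the 4 WT libraries alone, 2867 with DESeq2, 3905 with DESeq2 on the 4 WT libraries and 2677 without WT MoM replicate 1 and TG Kupffer replicate 2; rises became 1179, 1815, 2530 and 1510, and falls 406, 1052, 1375 and 1167. Falls also moved to 16 without the low-count filter and to 32 with the replicate block. Leaving out each library in turn gave 0 to 1434 calls, 0 to 1058 rises and 0 to 376 falls. Without the filter 258 genes were called, and with size factors 158. In TG, 381 calls became 2563 with DESeq2, 2130 without those 2 libraries, and 0 to 1026 with each library left out. The subset difference between genotypes went from 0 calls to 47 with DESeq2 and to 83 without TG Kupffer replicate 1. The cause of these changes was not tested. The labels do not tie replicate numbers to a shared animal or batch. The deviations of same-numbered libraries correlated at -0.0725 in WT, 0.59 in TG, 0.125 over the MoM and 0.271 over the Kupffer libraries of the 2 genotypes, so whether they shared a batch was not settled and the block was not used for the results. With the replicate block 234 genes were called in WT, 202 higher and 32 lower, and 156 of the 178 remained. Of 2772 values of the 185 named genes under other settings, 0 reversed, 256 lost and 493 gained a call. List medians changed sign in 27 of 832 values, within 7 lists (complement receptors, dissociation stress, Fc receptors, glycolysis, the IL-1 family, metalloproteases and oxidative phosphorylation). The median log2 fold change of all genes was 0.106 with TMM on 8 libraries and -0.0016 on the 4 WT libraries, and values moved with it.

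A gene that was not called is not shown to be equal. Calls of falls in Kupffer genes rest on which MoM library is used and on the tool. With both MoM libraries, edgeR called 0 of the 98 genes nearly confined to Kupffer cells lower (0.059% of all genes). DESeq2 called 71 of them lower (6.79% of all genes). These 98 were chosen by low values of MoM replicate 2, so falls called among them are partly given by the choice. Genes with a few counts in Kupffer cells have fold changes that depend on edgeR's prior count.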
